A study of Mus musculus with 11 samples.

Results

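The genes of cholesterol and fatty acid synthesis were followed across 11 Illumina expression arrays of mouse epiblast stem cells (EpiSCs), pluripotent cells that resemble the postimplantation epiblast. The set was chosen by name, with earlier results of these data known: 18 sterol enzymes, 8 fatty acid enzymes and 6 regulators and carriers. Of these, 26 genes out of 9201 with a gene symbol had a probe in the table. Measured were 14 sterol enzymes, 6 fatty acid enzymes and all 6 regulators and carriers. Acat2, Hmgcs1, Mvk, Fdft1, Acaca and Fasn were not analysed here because no probe carried their symbols.

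All cells were of strain 129xMF1 and were kept in N2B27 medium with Activin and Fgf. GY118F EpiSCs carry the GY118F transgene, a chimeric receptor that binds the cytokine G-CSF (GCSF in the labels) outside the cell and signals through gp130 and STAT3 inside it. Control EpiSCs are labelled with no transgene. Each line was sampled unstimulated, with 3 arrays for GY118F and 3 for control EpiSCs. Each was also sampled after G-CSF for 3 hours, with 2 arrays for GY118F and 3 for control EpiSCs. A change with G-CSF is here a difference between stimulated and unstimulated arrays of a line. Within a line, G-CSF and anything else that differed between those arrays, such as handling, cannot be told apart. Between the lines, the transgene and anything else that differed between them, such as culture history, cannot be told apart either. This holds for their levels and for the difference of their responses. Which promoter drives the transgene, whether each line is a single clone and whether replicates were separate cultures is not given in the labels, so the p-values rest on a spread between arrays that could be technical only.

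Cholesterol is built from acetyl-CoA through mevalonate, farnesyl diphosphate, squalene and lanosterol, and fatty acids are built from the same acetyl-CoA and then elongated and desaturated. Both branches are controlled by the SREBP transcription factors (genes Srebf1 and Srebf2), which the escort protein SCAP carries out of the endoplasmic reticulum when sterols run low and which the INSIG proteins hold back when sterols are plentiful. The promoters of sterol genes are known for sterol regulatory elements bound by SREBP next to CCAAT boxes bound by NF-Y.

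Expression values, close to log2 in scale, ran from 7.11 to 15.22 (median 8.16), so a difference of 1 is close to a doubling, and levels of different genes are not compared. A change was called when its adjusted p from limma (Benjamini-Hochberg over 11208 features) was under 0.05. Arrays of the same group correlated at r = 0.994 to 0.998 and arrays of different groups at 0.960 to 0.982 across features. Socs3, the feedback inhibitor induced by STAT3, rose by 3.00 ± 0.05 (SE) with G-CSF in GY118F EpiSCs (limma adjusted p = 5.09e-13). In control EpiSCs it was called lower, at -0.17 ± 0.04 (SE; limma adjusted p = 0.00735). Before G-CSF it was already higher in GY118F than in control EpiSCs, by 0.73 ± 0.04 (SE; limma adjusted p = 7.54e-08). All 12 EpiSC markers examined, such as Pou5f1 and Otx2, were measured, and their mean over the list was 9.91 to 9.99 in unstimulated control, 10.10 to 10.20 in stimulated control, 9.40 to 9.56 in unstimulated GY118F and 9.66 to 9.80 in stimulated GY118F arrays. This mean thus moved with line and with G-CSF, and its part in the results below was not tested. Between unstimulated lines 7 of the 12 were lower in GY118F EpiSCs (58.3%, against 16.5% of all features). The lowest was Otx2 at -2.09. Sox2 (0.51) was the 1 called higher (8.33%, against 16.7%). In control EpiSCs 6 markers unstimulated and 7 stimulated had a group mean above the 75th percentile of all values (9.31). In GY118F EpiSCs these were 4 and 5. Of 10 fibroblast markers 5 were measured, with means over the list between 7.51 and 7.67 and no marker above the 75th percentile of all values (9.31). The same held for the 3 of 7 endoderm markers (7.41 to 7.94), 2 of 6 trophoblast markers (7.40 to 8.05) and 1 of 6 neural progenitor markers (8.41 to 9.15) that were measured. The neural marker was higher with G-CSF in both lines, as was the trophoblast mean through Cdx2 alone (1.23 in control and 0.46 in GY118F EpiSCs), since Krt7 stood at -0.07 and -0.04 without a call. The endoderm mean was lower in GY118F (up to 7.53) than in control arrays (from 7.74). Single fibroblast markers moved in opposite directions under their list mean. Between unstimulated lines 2 of 5 were higher and 2 lower in GY118F EpiSCs (40% each, against 16.7% and 16.5% of all features), with Dcn at 0.38 and Thy1 at -0.82. With G-CSF Dcn stood at 0.42 and Thy1 at -0.29 in GY118F EpiSCs, and at 0.02 (not called) and -0.49 in control EpiSCs. The part of all these markers in the results was not tested either.

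The promoters shown are those of members whose response to G-CSF was called more upward in GY118F than in control EpiSCs. Of 6 such members 5 had an entry in the promoter table, and Fdps is named only. Of the 26 genes, 20 had a promoter in the RefSeq table (GRCm38.p6). From that table come the 250 bases before the start of Lss (chr10:76531355-76531604, plus strand), Cyp51 (chr5:4104698-4104947, minus strand), Msmo1 (chr8:64733579-64733828, minus strand), Hsd17b7 (chr1:169969206-169969455, minus strand) and Insig1 (chr5:28071162-28071411, plus strand). They are written 5′ to 3′ along the gene, and capitals mark each CCAAT or its reverse complement ATTGG.
Lss: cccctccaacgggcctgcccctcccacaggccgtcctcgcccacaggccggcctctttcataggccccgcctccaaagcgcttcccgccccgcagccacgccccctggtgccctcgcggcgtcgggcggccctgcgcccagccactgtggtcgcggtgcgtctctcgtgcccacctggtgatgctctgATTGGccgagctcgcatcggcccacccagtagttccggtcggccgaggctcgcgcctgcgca
Cyp51: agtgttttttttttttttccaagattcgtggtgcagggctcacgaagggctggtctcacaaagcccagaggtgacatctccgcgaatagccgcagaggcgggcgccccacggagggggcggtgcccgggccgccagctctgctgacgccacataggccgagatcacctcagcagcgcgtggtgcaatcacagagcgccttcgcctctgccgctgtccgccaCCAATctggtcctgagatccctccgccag
Msmo1: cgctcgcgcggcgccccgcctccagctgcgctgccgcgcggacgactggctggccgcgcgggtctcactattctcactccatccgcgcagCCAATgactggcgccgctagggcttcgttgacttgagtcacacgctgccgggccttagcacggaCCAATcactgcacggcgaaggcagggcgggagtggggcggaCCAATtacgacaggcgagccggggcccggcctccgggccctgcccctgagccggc
Hsd17b7: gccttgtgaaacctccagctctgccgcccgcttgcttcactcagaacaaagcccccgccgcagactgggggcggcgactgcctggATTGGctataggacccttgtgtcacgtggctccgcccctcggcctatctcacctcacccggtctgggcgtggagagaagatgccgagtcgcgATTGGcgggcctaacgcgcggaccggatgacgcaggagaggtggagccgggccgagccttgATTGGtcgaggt
Insig1: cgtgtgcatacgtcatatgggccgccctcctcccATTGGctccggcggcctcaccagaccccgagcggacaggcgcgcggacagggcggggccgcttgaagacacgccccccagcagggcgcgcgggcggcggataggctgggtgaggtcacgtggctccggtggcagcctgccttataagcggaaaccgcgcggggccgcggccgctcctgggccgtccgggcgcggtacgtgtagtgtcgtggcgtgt
All 12 sterol enzymes with a promoter in the table held a CCAAT on either strand within 250 bases before at least 1 of their starts, against 41.9% of the 7498 genes that were both measured here and listed in the table. The same was found for 4 of 5 regulators and carriers and for 0 of 3 fatty acid enzymes. Msmo1 and Hsd17b7 held 3 copies each, and Lss, Cyp51 and Insig1 held 1 each. Insig2, which had no called difference of responses, held as many as Msmo1 before 1 of its starts. Mvd, Idi1, Nsdhl, Ebp and Dhcr7, also without a called difference, each held more copies than Lss. Neither the presence nor the number of these letters thus set the called members apart. The core letters of a sterol regulatory element, TCACNCCAC, were in none of these promoters on either strand (1.16% of measured genes), which says only that these letters are not in this window. The letters TTCNNNGAA of a STAT element were found in Ebp alone of the 12 sterol enzymes, against 6.96% of measured genes. A match is a description, not a shown binding site.

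The first comparison asked how these genes changed with G-CSF where the receptor was present. Sterol enzymes shifted upward in GY118F EpiSCs: 6 of 14 rose and 0 fell, against 17.8% of all features called higher and 21.9% called lower. The median change of the 14 was 0.18 on the log2 scale, against -0.01 over all features, and no measured sterol enzyme had a change below 0.02. The 6 that rose were Hsd17b7, Cyp51, Sqle, Lss, Msmo1 and Sc5d. All 6 act after farnesyl diphosphate, from squalene onward, but so do most of the 14 measured. Whether the response depended on the step of the pathway was not tested.

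Hsd17b7, the ketosteroid reductase that completes removal of the methyl groups at carbon 4 of the sterol ring, changed most. Its values were 9.91, 9.99 and 10.10 in unstimulated GY118F arrays and 11.22 and 11.19 with G-CSF. In control arrays they were 10.06, 10.02 and 10.08 without and 10.71, 10.58 and 10.64 with G-CSF. Stimulated arrays lay above unstimulated ones in both lines without overlap, and those of GY118F lay above those of the control. The rise was 1.21 ± 0.06 (SE), or 2.31-fold, in GY118F EpiSCs (limma adjusted p = 2.88e-08) and 0.59 ± 0.06 (SE), or 1.5-fold, in control EpiSCs (limma adjusted p = 3.80e-06).

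Cyp51, the demethylase that takes lanosterol into the later steps, stood at 10.79, 10.72 and 10.92 in unstimulated and 11.49 and 11.58 in stimulated GY118F arrays. The control arrays gave 10.96, 11.01 and 11.09 without and 11.12, 10.97 and 11.03 with G-CSF. The stimulated GY118F arrays were above all the others and the unstimulated GY118F arrays below all the others. Cyp51 rose by 0.72 ± 0.07 (SE), or 1.65-fold, in GY118F EpiSCs (limma adjusted p = 5.15e-06), and its change in control EpiSCs was 0.02 (95% interval -0.11 to 0.15).

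For squalene epoxidase, Sqle, the values were 11.73, 11.92 and 11.95 in unstimulated and 12.50 and 12.41 in stimulated GY118F arrays. Control arrays held 12.06, 12.01 and 11.95 without and 12.37, 12.16 and 12.19 with G-CSF. Stimulated arrays exceeded unstimulated ones in both lines. Sqle rose by 0.59 ± 0.08 (SE) in GY118F (limma adjusted p = 7.04e-05) and by 0.24 ± 0.07 (SE) in control EpiSCs (limma adjusted p = 0.0147). The control call was lost without unstimulated control replicate 3 (limma adjusted p = 0.0602) or stimulated control replicate 1 (0.0625), and a second, dimmer Sqle probe rose by 0.45 in GY118F and stood at -0.02 in control EpiSCs.

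Lanosterol synthase, Lss, which closes the sterol rings, lay at 9.88, 10.20 and 10.18 in unstimulated and at 10.55 and 10.69 in stimulated GY118F arrays. In the control it lay at 10.79, 10.71 and 10.63 without and at 10.72, 10.83 and 10.66 with G-CSF. The unstimulated GY118F arrays were below all the others. Lss rose by 0.53 ± 0.09 (SE) in GY118F EpiSCs (limma adjusted p = 6.19e-04), while its control change was 0.02 (95% interval -0.16 to 0.20). A second Lss probe with a mean of 7.47, under the 25th percentile of all values (7.62), gave 0.03 in GY118F EpiSCs.

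Methylsterol monooxygenase, Msmo1, works on the same methyl groups as Hsd17b7 and gave 11.66, 11.78 and 11.85 in unstimulated and 12.12 and 12.08 in stimulated GY118F arrays. The control values were 12.07, 12.06 and 11.89 without and 11.77, 11.86 and 11.54 with G-CSF. The lines thus moved in opposite directions, without overlap of stimulated and unstimulated arrays in either. Msmo1 rose by 0.34 ± 0.09 (SE) in GY118F (limma adjusted p = 0.0099) and fell by 0.28 in control EpiSCs (-0.28 ± 0.08, SE; limma adjusted p = 0.0128). The rise was not called without stimulated GY118F replicate 2 (limma adjusted p = 0.0601), nor the fall without unstimulated control replicate 1 (0.0537) or stimulated control replicate 3 (0.0564). Sc5d, a desaturase of the sterol ring, rose by 0.33 ± 0.09 (SE) in GY118F EpiSCs (limma adjusted p = 0.00799) from low values of 7.65, 7.70 and 7.64 to 7.92 and 8.08, and this call was lost without stimulated GY118F replicate 3 (limma adjusted p = 0.0939).

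**Figure D1:**
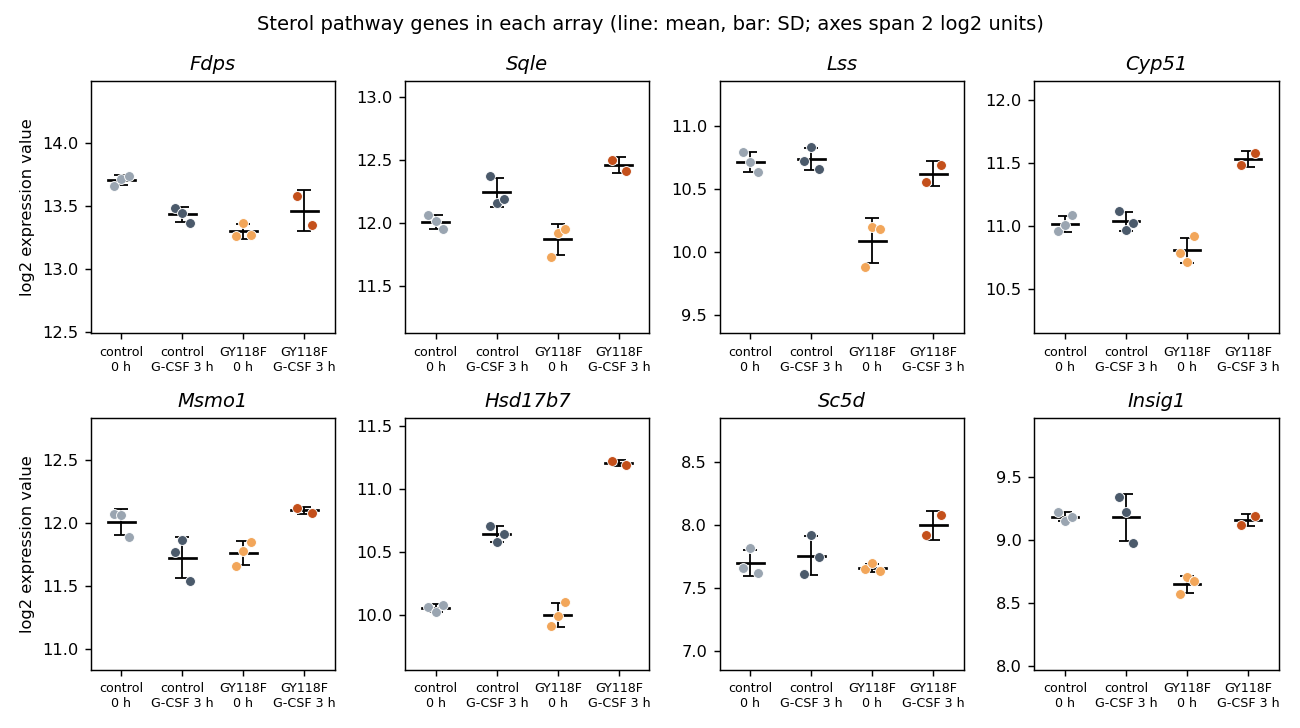
Log2 expression value (vertical axis, 2 log2 units in each panel) of 7 sterol enzymes and Insig1 in each array of the 4 groups, with the mean as a line and the SD as a bar (n = 3, and n = 2 for stimulated GY118F). Hsd17b7 reached 11.22 and 11.19 in stimulated GY118F arrays against 10.71 at most in the control, and Lss and Insig1 were low in unstimulated GY118F arrays only.

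The 8 sterol enzymes without a call in GY118F EpiSCs included all 4 measured enzymes from mevalonate to farnesyl diphosphate. Farnesyl diphosphate synthase, Fdps, stood at 0.17 ± 0.07 (SE), the kinase Pmvk at 0.05, the isomerase Idi1 at 0.04 and the decarboxylase Mvd at 0.03. Without stimulated GY118F replicate 3 the Fdps change was 0.28 and called (limma adjusted p = 0.012), and its dimmer second probe rose by 0.28 (limma adjusted p = 0.00308 over all probes). Idi1 lay between 7.39 and 7.57 on every array, under the 25th percentile of all values, so its values tell little. Among late enzymes, the dehydrogenase Nsdhl stood at 0.20 ± 0.11 (SE), the final reductase Dhcr7 at 0.15, the isomerase Ebp at 0.07 and the reductase Tm7sf2 at 0.02. The Nsdhl probe used was the brightest of 4. The other 3 were called higher, by 0.27 to 0.34, in a fit of all probes, and without stimulated GY118F replicate 3 the brightest was called too, at 0.38 (limma adjusted p = 0.0204).

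Control EpiSCs gave a mixed picture over the same sterol enzymes. Here 3 of 14 rose and 5 fell (21.4% and 35.7%), against 19.5% of all features called higher and 22.6% called lower. The share that rose is near that of all features. The median change was 0.02, against 0.00 over all features. Although labelled with no transgene, control EpiSCs had shares of all features called close to those of GY118F EpiSCs (17.8% and 21.9%). Whether G-CSF or another difference between stimulated and unstimulated arrays moved them cannot be told apart. The sterol enzymes that rose were Hsd17b7, Ebp (0.27 ± 0.05, SE) and Sqle. Those that fell were Mvd, Msmo1, Fdps, Pmvk (-0.20) and Tm7sf2 (-0.18).

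Mvd, the decarboxylase that makes isopentenyl diphosphate, was at 10.08, 9.98 and 9.99 in unstimulated and at 9.69, 9.64 and 9.57 in stimulated control arrays. GY118F arrays had 9.43, 9.76 and 9.76 without and 9.68 and 9.69 with G-CSF. The unstimulated control arrays were above all the others. Mvd fell by 0.38 in control EpiSCs (-0.38 ± 0.08, SE; limma adjusted p = 0.00152).

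Fdps was at 13.66, 13.72 and 13.74 in unstimulated and at 13.49, 13.45 and 13.37 in stimulated control arrays. In GY118F it was at 13.26, 13.37 and 13.27 without and at 13.58 and 13.35 with G-CSF. Stimulated control arrays lay below unstimulated ones, whereas the GY118F groups overlapped. The control fall of 0.27 (-0.27 ± 0.06, SE; limma adjusted p = 0.00345) was not seen by the dimmer second Fdps probe, which stood at 0.07. The Pmvk call was lost when any of unstimulated control replicates 1, 2 and 3 or stimulated control replicate 2 was left out (limma adjusted p from 0.0527 to 0.143), and the Tm7sf2 call without unstimulated control replicate 3 (0.0722). Without unstimulated control replicate 1 or 3 the count of sterol enzymes that fell was 3.

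**Figure D2:**
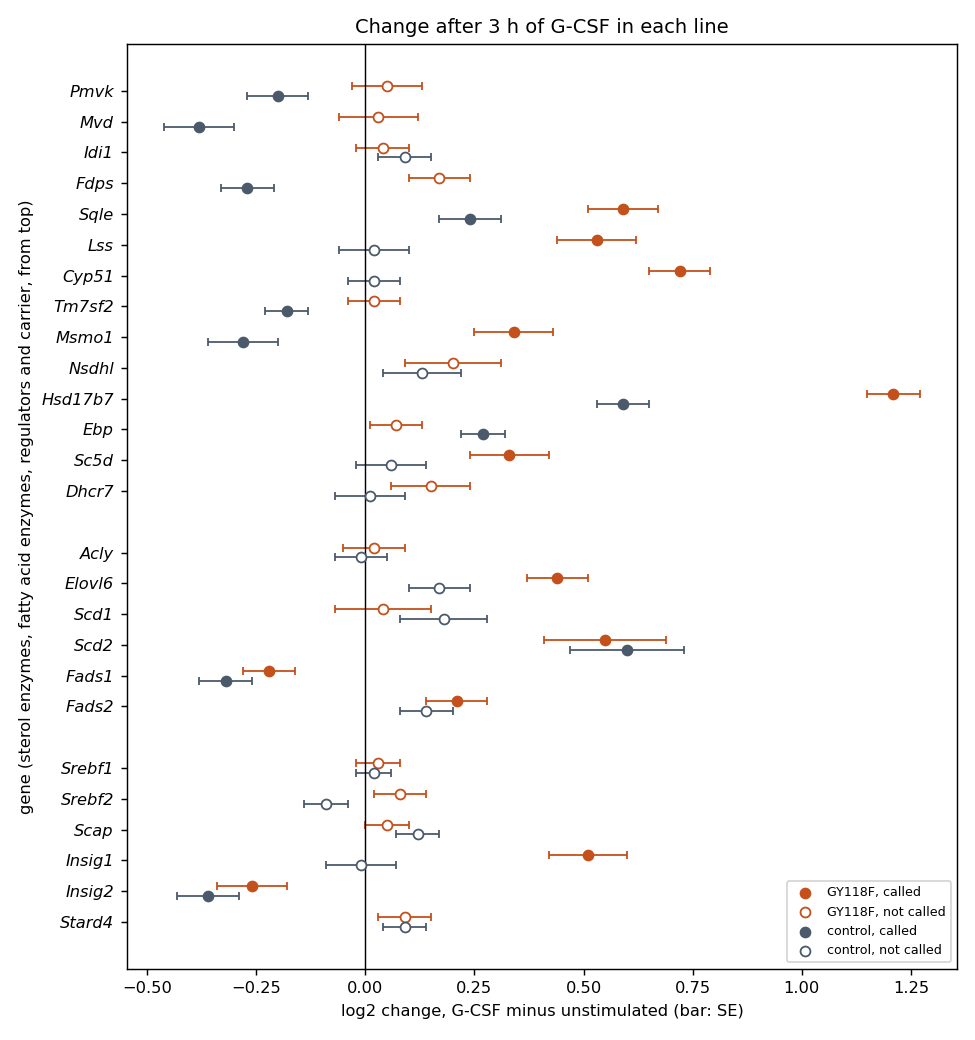
Log2 change after 3 hours of G-CSF (horizontal axis, G-CSF minus unstimulated, bar: SE) of the 26 measured genes in GY118F and control EpiSCs. Filled points were called by limma at an adjusted p under 0.05. The 6 sterol enzymes called higher in GY118F EpiSCs lie between 0.33 (Sc5d) and 1.21 (Hsd17b7) and the 8 without a call between 0.02 (Tm7sf2) and 0.20 (Nsdhl), and Mvd and Fdps lie to the left only in control EpiSCs.

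Whether the lines responded differently was tested directly as the difference of their G-CSF effects. Of 14 sterol enzymes 5 changed more upward in GY118F than in control EpiSCs and 0 more downward, against 3.85% and 2.14% of all features. The median difference of the 14 was 0.31, against -0.01 over all features. Cyp51 had the largest difference, 0.70 ± 0.09 (SE; limma adjusted p = 5.67e-04), followed by Hsd17b7 at 0.62 ± 0.08 (SE; limma adjusted p = 6.69e-04) and Msmo1 at 0.62 ± 0.12 (SE; limma adjusted p = 0.0083). For these 3 the call held when any single array was left out.

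Lss (0.51 ± 0.12, SE; limma adjusted p = 0.0295) and Fdps (0.44 ± 0.09, SE; limma adjusted p = 0.0138) were called less firmly. The Fdps call was lost without stimulated GY118F replicate 2, where the difference was 0.32 (limma adjusted p = 0.069). The Lss call was lost with a replicate block (0.49; limma adjusted p = 0.0542) and when any of unstimulated control replicates 1 and 2, stimulated control replicates 1 and 3 and stimulated GY118F replicate 3 was left out (limma adjusted p from 0.0552 to 0.117). A floor at the 25th percentile of all values also ended the Lss call (limma adjusted p = 0.0911), and the dimmer second probes gave differences of 0.03 for Lss and 0.21 for Fdps, neither called. Mvd (0.42; limma adjusted p = 0.0561) and Sqle (0.35; limma adjusted p = 0.0695) missed the threshold, with 95% intervals of 0.16 to 0.67 and 0.13 to 0.58. Both passed it without unstimulated GY118F replicate 3 (limma adjusted p = 0.0289 and 0.0451). Mvd also passed without unstimulated GY118F replicate 1 (0.0399) or 2 (0.0476), and Sqle without stimulated control replicate 1 (0.0251). The second Sqle probe had a called difference of 0.47. Ebp and Idi1 went the other way without a call, at -0.20 (95% interval -0.36 to -0.04) and -0.04.

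The lines differed before G-CSF was given. In unstimulated GY118F EpiSCs 5 of 14 sterol enzymes were lower than in unstimulated control EpiSCs and 0 were higher, against 16.5% and 16.7% of all features. These were Lss (-0.63 ± 0.08, SE), Fdps (-0.41 ± 0.06, SE), Mvd (-0.37 ± 0.08, SE), Msmo1 (-0.24) and Cyp51 (-0.21). The Lss, Fdps and Mvd calls had limma adjusted p of 7.61e-05, 2.15e-04 and 0.00251. The Cyp51 call was lost without unstimulated GY118F replicate 1 or 2 or unstimulated control replicate 3 (limma adjusted p from 0.0557 to 0.0885), and the Msmo1 call without unstimulated GY118F replicate 1 or 2 or unstimulated control replicate 1 or 2 (0.0759 to 0.138). Without unstimulated GY118F replicate 1 or 2 the count of lower enzymes was 3. The second probes of Lss (-0.04) and Fdps (-0.15) were not called here.

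With G-CSF in both lines, 3 of 14 sterol enzymes were higher in GY118F EpiSCs (21.4%) and 0 were lower, against 15.6% and 14.4% of all features. The share of higher enzymes is near that of all features. The higher ones were Hsd17b7 (0.56 ± 0.06, SE; limma adjusted p = 1.88e-05), Cyp51 (0.49 ± 0.07, SE; limma adjusted p = 1.35e-04) and Msmo1 (0.38 ± 0.09, SE; limma adjusted p = 0.00659). The Msmo1 call was lost without stimulated GY118F replicate 2 (limma adjusted p = 0.0501). Fdps stood at 0.03 (95% interval -0.12 to 0.18), Mvd at 0.05 and Lss at -0.12 (-0.32 to 0.08) without a call. Different patterns of levels lay behind the called differences of responses, since a difference of responses is the line difference with G-CSF minus that without it. Lss and Fdps were lower in GY118F EpiSCs before G-CSF with no called difference after it, whereas Hsd17b7 had no called difference before (-0.05) and was higher after it. Cyp51 and Msmo1 were lower before and higher after. All these comparisons share arrays and are not independent of each other.

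**Figure D3:**
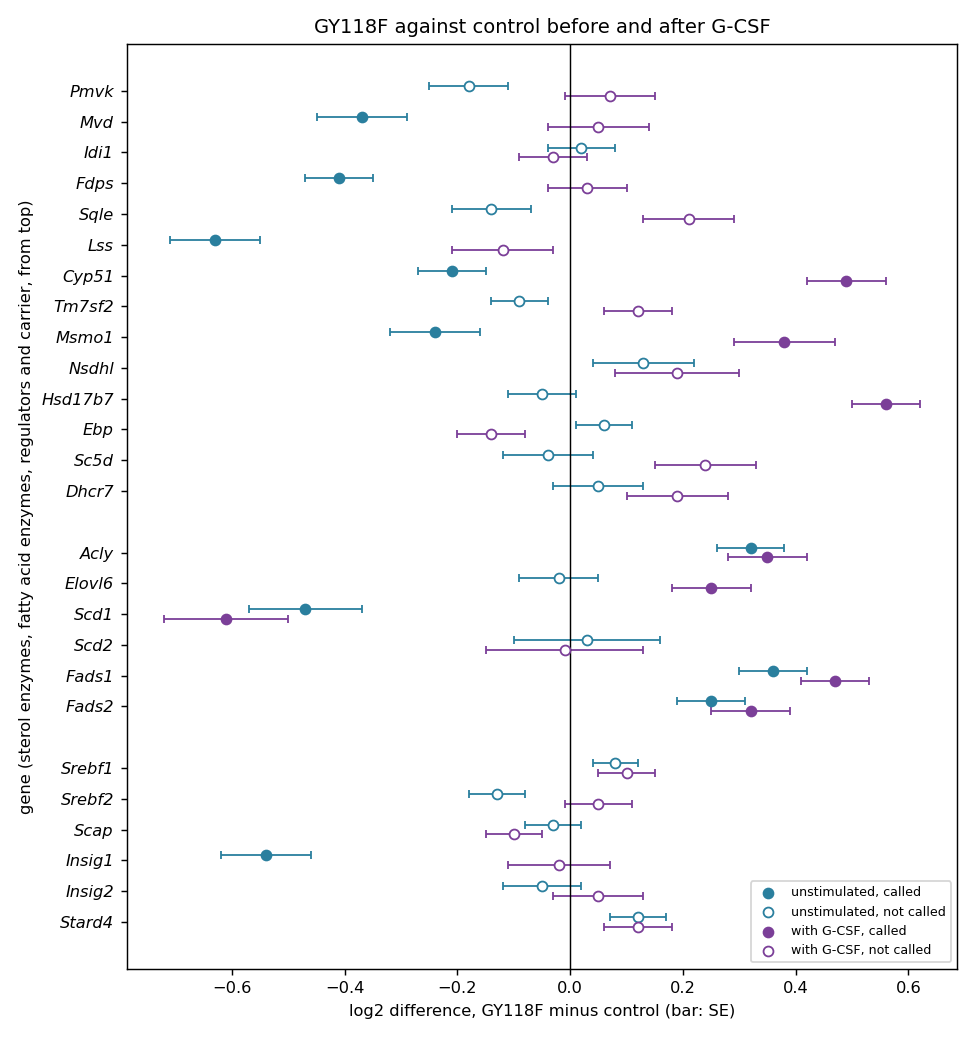
Log2 difference between GY118F and control EpiSCs (horizontal axis, GY118F minus control, bar: SE) of the 26 measured genes without and with G-CSF. Filled points were called by limma at an adjusted p under 0.05. Lss and Insig1 lie at -0.63 and -0.54 without G-CSF and at -0.12 and -0.02 with it, while Fads1 and Acly lie to the right in both states.

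Among the 6 regulators and carriers, 1 rose and 1 fell with G-CSF in GY118F EpiSCs (16.7% each, against 17.8% and 21.9% of all features), and 0 rose and 1 fell in control EpiSCs (against 19.5% and 22.6%). Apart from the absence of a rise in control EpiSCs, which tells little with only 6 genes, these shares lie near those of all features. Transcripts of the SREBP genes themselves were not called in any of the 5 comparisons: with G-CSF in GY118F EpiSCs Srebf1 stood at 0.03 ± 0.05 (SE) and Srebf2 at 0.08 ± 0.06 (SE). Srebf1 lay between 7.40 and 7.55 on every array, under the 25th percentile of all values. A second Srebf2 probe, with a mean of 8.26, was called higher in GY118F (0.19) and in control EpiSCs (0.18). The escort gene Scap (0.05) and the cholesterol carrier Stard4 (0.09) had no call in GY118F EpiSCs.

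Insig1, which is itself a target of SREBP and holds it back, was lowest in unstimulated GY118F arrays, as Lss was. Its values were 8.57, 8.70 and 8.67 in unstimulated and 9.12 and 9.19 in stimulated GY118F arrays. Control arrays gave 9.22, 9.15 and 9.18 without and 9.34, 9.22 and 8.97 with G-CSF. The unstimulated GY118F arrays were below all the others. Insig1 rose by 0.51 ± 0.09 (SE) in GY118F EpiSCs (limma adjusted p = 5.54e-04) with a control change of -0.01 (95% interval -0.18 to 0.16), and the difference of 0.52 ± 0.12 (SE) was called (limma adjusted p = 0.0202). This difference lost its call without unstimulated control replicate 1 (limma adjusted p = 0.0533) and without stimulated GY118F replicate 2 (0.0503) or 3 (0.0746), and when a floor was set at the 25th percentile (0.0686). Before G-CSF it was lower in GY118F than in control EpiSCs by -0.54 ± 0.08 (SE; limma adjusted p = 1.63e-04). A second Insig1 probe gave 0.42 in GY118F and -0.03 in control EpiSCs, but the dimmest of the 3 gave 0.09 and 0.27, with a call in the control only. That dimmest probe stood at 0.10 between unstimulated lines and at -0.18 in the difference of responses, opposite in sign to the brightest and without a call.

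Insig2, the other member of the pair, moved the opposite way. It was at 8.74, 8.84 and 8.89 in unstimulated and 8.67 and 8.45 in stimulated GY118F arrays. The control values were 8.90, 8.95 and 8.77 without and 8.62, 8.42 and 8.50 with G-CSF. Stimulated arrays lay below unstimulated ones in both lines. Insig2 fell by 0.26 in GY118F (-0.26 ± 0.08, SE; limma adjusted p = 0.0233) and by 0.36 in control EpiSCs (-0.36 ± 0.07, SE; limma adjusted p = 0.00179), and the difference between these was 0.10 (95% interval -0.14 to 0.34). The GY118F call was lost without unstimulated GY118F replicate 2 (limma adjusted p = 0.0612) or 3 (0.0627) and without stimulated GY118F replicate 3 (0.263). A dim second Insig2 probe, with a mean of 7.56, gave -0.03 and -0.10 without a call.

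Fatty acid enzymes showed no called difference between the responses of the lines. Here 0 of 6 were called in either direction, against 3.85% of all features more upward and 2.14% more downward. With only 6 genes, 0 is near these shares. Their median difference was 0.05, and without unstimulated GY118F replicate 3 the count was 1 (Elovl6, 0.34; limma adjusted p = 0.036). In GY118F EpiSCs 3 of 6 rose with G-CSF and 1 fell, against 17.8% and 21.9% of all features. In control EpiSCs 1 rose and 1 fell (16.7% each), near the 19.5% and 22.6% of all features. The control count of 1 was 2 without unstimulated GY118F replicate 1 or 3, unstimulated control replicate 1 or 2, or stimulated control replicate 2. Without stimulated GY118F replicate 3 only 1 of 6 (Elovl6) was called higher in GY118F EpiSCs.

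Scd2, a desaturase that makes monounsaturated fatty acids, gave 9.62, 9.92 and 10.04 in unstimulated and 10.23 and 10.60 in stimulated GY118F arrays. Control values were 9.70, 9.88 and 9.91 without and 10.27, 10.68 and 10.33 with G-CSF. Both lines shifted upward without overlap. Scd2 rose by 0.55 ± 0.14 (SE) in GY118F (limma adjusted p = 0.00839) and by 0.60 ± 0.13 (SE) in control EpiSCs (limma adjusted p = 0.00237), and the difference was -0.04 (95% interval -0.46 to 0.37). Without stimulated GY118F replicate 3 the GY118F rise was 0.37 and not called (limma adjusted p = 0.12). Its paralogue Scd1 had no call in either line, at 0.04 and 0.18.

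Elovl6, which elongates palmitate, stood at 10.53, 10.71 and 10.82 in unstimulated and 11.11 and 11.15 in stimulated GY118F arrays. The control arrays were at 10.64, 10.73 and 10.75 without and 10.90, 10.82 and 10.90 with G-CSF. Stimulated arrays again exceeded unstimulated ones in both lines. The rise was 0.44 ± 0.07 (SE) in GY118F EpiSCs (limma adjusted p = 4.80e-04), and the control change of 0.17 ± 0.07 (SE) missed the threshold (limma adjusted p = 0.0564) and passed it in a fit with a replicate block (0.0371) or without unstimulated GY118F replicate 1 (0.0179) or 3 (0.0268).

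The desaturases of polyunsaturated fatty acids, Fads1 and Fads2, differed from each other. Fads1 had 13.35, 13.49 and 13.47 in unstimulated and 13.23 and 13.21 in stimulated GY118F arrays, and 13.15, 13.09 and 12.98 in unstimulated and 12.81, 12.74 and 12.70 in stimulated control arrays. It was lower with G-CSF in both lines and higher in GY118F than in control arrays in both states. Fads1 fell by 0.22 in GY118F (-0.22 ± 0.06, SE; limma adjusted p = 0.016) and by 0.32 in control EpiSCs (-0.32 ± 0.06, SE; limma adjusted p = 5.47e-04), and the GY118F call was lost without unstimulated GY118F replicate 2 or either stimulated GY118F array (limma adjusted p from 0.0547 to 0.0822). Fads2 was at 9.72, 9.86 and 9.82 in unstimulated and 9.95 and 10.06 in stimulated GY118F arrays, and at 9.63, 9.50 and 9.50 against 9.74, 9.60 and 9.71 in the control. Its small rise of 0.21 ± 0.07 (SE) in GY118F EpiSCs (limma adjusted p = 0.0242) was lost without unstimulated GY118F replicate 1 (0.0843) or stimulated GY118F replicate 3 (0.189), and a dimmer second probe gave 0.00.

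Acly, which supplies cytosolic acetyl-CoA to both branches, did not respond by a call to G-CSF, at 0.02 in GY118F (95% interval -0.13 to 0.17) and -0.01 in control EpiSCs. The lines themselves differed in these enzymes. Unstimulated GY118F EpiSCs had more Fads1 (0.36 ± 0.06, SE), Acly (0.32 ± 0.06, SE) and Fads2 (0.25 ± 0.06, SE) and less Scd1 (-0.47 ± 0.10, SE) than control EpiSCs, 3 of 6 higher and 1 lower, against 16.7% and 16.5% of all features. With G-CSF the same 4 were called in the same directions, at 0.47, 0.35, 0.32 and -0.61, and Elovl6 was called higher too (0.25 ± 0.07, SE), which made 4 higher and 1 lower against 15.6% and 14.4% of all features. The 1 lower enzyme (16.7%) is near the background in both states. The second Fads2 probe was not called in either state (0.18 and 0.13). The Elovl6 call was lost without stimulated GY118F replicate 2 (limma adjusted p = 0.0692) or 3 (0.0992) or without stimulated control replicate 2 (0.0684).

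**Figure D4:**
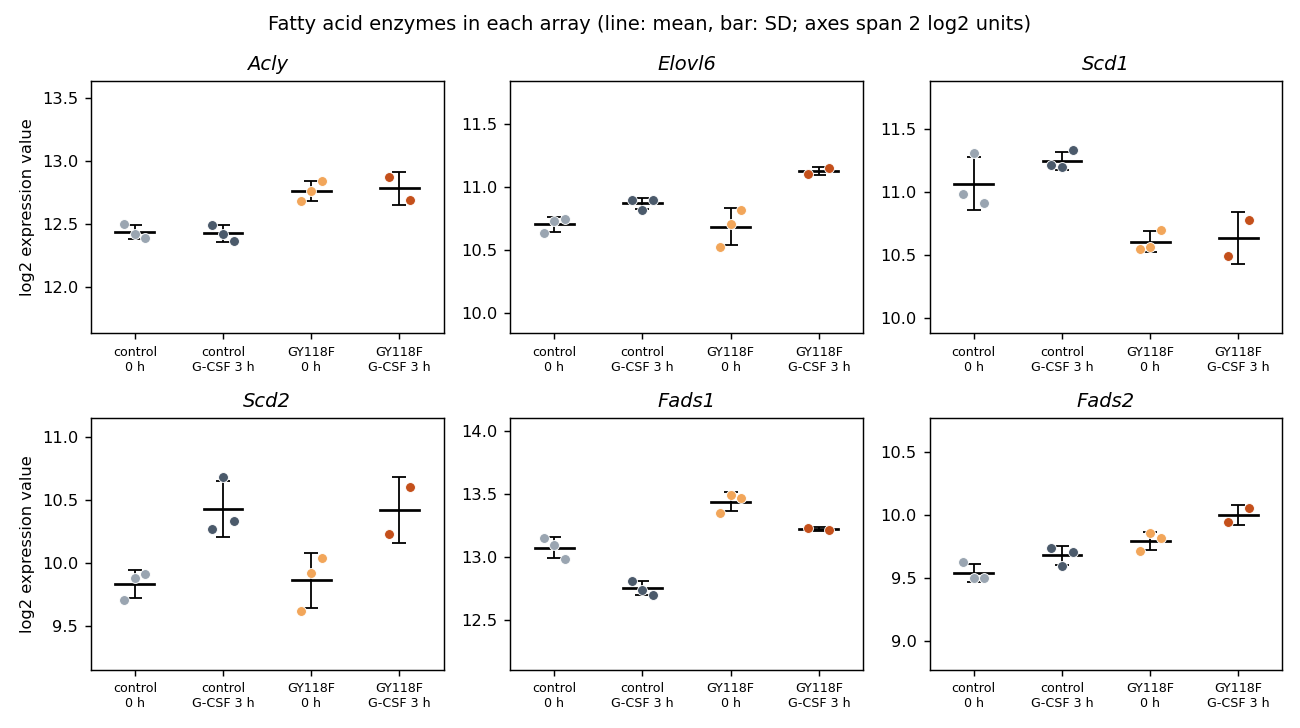
Log2 expression value (vertical axis, 2 log2 units in each panel) of the 6 measured fatty acid enzymes in each array of the 4 groups, with the mean as a line and the SD as a bar (n = 3, and n = 2 for stimulated GY118F). Scd2 was higher and Fads1 lower with G-CSF in both lines, and Scd1 was lower in GY118F than in control arrays.

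Of 28 further sterol genes 16 were measured. With G-CSF 2 rose and 3 fell in GY118F EpiSCs (12.5% and 18.8%, against 17.8% and 21.9% of all features). In control EpiSCs 1 rose and 4 fell (6.25% and 25%, against 19.5% and 22.6%). In the difference 0 were called, against 3.85% of all features more upward and 2.14% more downward. These shares are near or below those of all features. Npc1, which exports cholesterol from lysosomes, fell by 0.96 in GY118F and by 1.07 in control EpiSCs, and the sterol-responsive membrane protein gene Tmem97 rose by 0.39 and 0.37. Of 28 further fatty acid genes 19 were measured, and 2 rose and 6 fell in GY118F (10.5% and 31.6%) and 1 rose and 6 fell in control EpiSCs (5.26% and 31.6%), against the same shares of all features. Acss2, which makes acetyl-CoA from acetate, fell by 0.61 and 0.73. The acyl-CoA synthetase Acsl3 fell by 0.40 in control EpiSCs only, with a called difference of responses of 0.60 ± 0.11 (SE; limma adjusted p = 0.00708). The other called differences of this list were Elovl1 and Mcat, both at 0.34. Elovl1 rose by 0.31 in GY118F EpiSCs and stood at -0.03 in control EpiSCs without a call. Mcat was called lower in both lines, at -0.29 in GY118F and -0.63 in control EpiSCs, so its difference was a smaller fall. Called differences, GY118F minus control, were thus positive for 3 of 19 genes (15.8%, against 3.85% of all features). They were negative for 0 (against 2.14%). Among 12 measured genes of fatty acid oxidation 5 fell and 0 rose in GY118F EpiSCs, Ech1 by 0.54 and Eci1 by 0.41, and 4 fell and 1 rose in control EpiSCs, with 0 called in the difference. The lower ones made up 41.7% and 33.3%, against 21.9% and 22.6% of all features. The higher ones made up 0% and 8.33%, against 17.8% and 19.5%. The 0 called in the difference stand against 3.85% of all features more upward and 2.14% more downward.

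In the study, a gene counted as of interest if stimulation raised it over 1.4-fold (p threshold 0.01) in GY118F EpiSCs and left it without a significant change in the control. With adjusted p from limma and the threshold of 0.01 applied to both lines, 4 of the 26 genes met this rule, Sqle, Lss, Cyp51 and Insig1, against 1.07% of all features. Sqle met it only because its control rise (limma adjusted p = 0.0147) missed 0.01, and it would not at the 0.05 used elsewhere here. Hsd17b7 and Scd2 did not meet it because their control rises passed 0.01 as well.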

How the data were processed

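Per the labels' protocols, total RNA came from a Qiagen RNeasy kit, and Illumina TotalPrep-96 amplification gave the biotin label. The deposited log2 values were made by the authors with lumi, per the submitters' processing notes. Its version, and whether a plain log2 or a variance-stabilizing transformation was used, are not given in the sources used here. In the latter case changes of dim genes are understated. Between the 11 arrays, sorted values differed by no more than 0.00116. The arrays had therefore been quantile-normalized, which removes differences in total RNA. There were 15718 probes, without detection p-values. In bulk RNA, fewer cells with a transcript and less transcript per cell cannot be told apart.

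Probes were named through GEO's platform annotation (13711 with 1 symbol, 5 with several, 2002 not listed). A gene was represented by its brightest probe (mean of all arrays), which with 2007 unnamed probes gave 11208 features, unfiltered. All 4 groups were fitted together with limma 3.58.1 in R 4.3.3 (lmFit, eBayes, two-sided, no replicate block), with 5 comparisons and Benjamini-Hochberg adjustment over all features, and 95% intervals are from this fit. Stimulated GY118F arrays carry replicate numbers 2 and 3 from their source names, though their titles give 1 and 2. Source names of stimulated control arrays all give 1, so titles were used. No pair of arrays held identical values.

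Every measured member is named, and values per array are printed for members called in the difference of G-CSF effects and the 4 largest called changes per subgroup and G-CSF comparison. Members and lists were chosen with earlier results of these data known. In simulated data with 11208 features, 50 were changed at each of 1.2-, 1.4-, 2- and 3-fold. The fit recovered 42 of 50 changes of 1.4-fold for G-CSF in GY118F EpiSCs, 48 in control EpiSCs and 38 for the difference. Of 50 changes of 1.2-fold it recovered 24, 30 and 9. In the data far more features were called (2000 higher and 2456 lower with G-CSF in GY118F EpiSCs), which loosens the Benjamini-Hochberg cut-off. The recovery therefore does not give the power of the tests used here. Promoters and motif letters were read from a RefSeq table (GRCm38.p6), both strands, 250 bases before each listed start. Alternatives were a replicate block under either numbering, only the groups compared, other probes of a gene, a filter on dim features, a second quantile normalization, median centring, a floor, trend and robust moderation, array weights, other thresholds and leaving out each array.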

Additional observations from a re-analysis of the deposited data

Results flagged for a closer look

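The change with G-CSF differed between GY118F and control EpiSCs, by limma's test of the difference itself, for 6 of the 26 genes. Each was more upward in GY118F EpiSCs (23.1%, against 3.85% of all features), and 0 were more downward (against 2.14%). On the log2 scale the differences were 0.70 for Cyp51, 0.62 for Msmo1, 0.62 for Hsd17b7, 0.52 for Insig1, 0.51 for Lss and 0.44 for Fdps.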

How the results depend on the processing

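The counts of sterol enzymes that rose with G-CSF in GY118F EpiSCs (6 of 14) and had a more upward change there (5 of 14) stayed within 1.5 times under every alternative, except that the latter was 3 at an adjusted p threshold of 0.01. When any single array was left out they were 5 to 7 and 4 to 7. Leaving out single arrays gave 1 to 3 fatty acid enzymes higher and 0 to 1 lower with G-CSF in GY118F, 3 to 5 sterol enzymes lower and 1 to 2 fatty acid enzymes higher in control, 0 to 1 fatty acid enzymes in the difference, and 3 to 6 sterol enzymes lower in unstimulated GY118F than in control. At the threshold of 0.01, 0 fatty acid enzymes fell in GY118F, 2 sterol enzymes fell in control and 3 were lower in unstimulated GY118F than in control EpiSCs. Asking also for over 1.4-fold left 1 fatty acid enzyme higher and 0 lower in GY118F, 1 sterol enzyme higher and 0 lower and 0 fatty acid enzymes lower in control, 1 sterol enzyme lower and 0 fatty acid enzymes higher or lower before G-CSF, and 0 fatty acid enzymes higher between stimulated lines. In control EpiSCs 2 fatty acid enzymes rose, in place of 1, with a replicate block under either numbering, in a fit of the groups compared, with median centring and with array weights. With the second brightest probe 3 sterol enzymes were lower before G-CSF, and with the mean of a gene's probes 5 were higher between stimulated lines, in place of 5 and 3. The second brightest probes changed sign in control EpiSCs for Fdps (0.07), Sqle (-0.02) and Srebf2 (0.18, called). The cause of these changes was not tested. Over all 26 genes, 5 comparisons and all settings, 2976 of 3199 values kept direction and call, 108 lost and 56 gained a call, 3 changed sign as above and 56 uncalled values changed sign. Deviations of same-numbered arrays from their group means were mixed: r was over 0.1 in 7 of 15 pairs, in all 3 of number 1 (0.14 to 0.40), 1 of 6 of number 2 (-0.47 to 0.25) and 3 of 6 of number 3 (-0.29 to 0.54), and 7 of 11 arrays correlated best with their own number, so pairing by number was not established and not assumed. The replicate block ended the Lss difference (0.49; limma adjusted p = 0.0542) and made the Elovl6 rise in control a call (0.17; limma adjusted p = 0.0371), and it changed no other call of these genes. With the numbers of the titles the Elovl6 rise (0.17) was likewise called, and Sc5d was called higher in stimulated GY118F than in stimulated control EpiSCs (0.22; limma adjusted p = 0.0196). Without detection p-values and with 2 to 3 arrays a group, changes of dim genes such as Idi1 and Srebf1 could not be resolved.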
